A study of Mus musculus with 4 samples.

Results

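The 8 genes described here encode proteins of basophils and mast cells, blood-derived cells that carry the high-affinity receptor for IgE. They are the granule proteases Mcpt8, Prss34 and Cpa3, the receptor chains Fcer1a and Ms4a2, the histamine enzyme Hdc, the cytokine Il4 and the surface receptor Cd200r3. They were taken by name and matched by Ensembl identifier to GRCm38 gene models. All 8 were found among the 25509 gene rows of the count table, and all 8 had enough counts to be tested. Transcripts came from splenocytes (spleen cells in suspension) of 8-week-old mice, shaved on the back and exposed to UVB at 100 mJ/cm2 for 1 or 3 weeks. The labels do not say which exposure time each library had. Wild-type mice (2 libraries) were compared with mice given as Trim21-/- (2 libraries, called knockout below). Trim21 encodes an antibody-binding ubiquitin ligase. Both groups received UVB, so no value separates an effect of UVB from the state without it.

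Basophils leave the bone marrow nearly mature, circulate and enter the spleen, while mast cells complete their maturation in tissues. In both, IgE sits on a receptor made of an alpha chain that binds it, a beta chain that amplifies the signal and a shared gamma chain. When antigen joins these receptors, the cell releases histamine and proteases from its granules, and basophils also secrete interleukin-4. Mcpt8 and Prss34 are proteases used as basophil markers in the mouse, Cpa3 and the receptor chains are shared with mast cells, and Cpa3 is also transcribed in early blood progenitors.

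Library totals were 39501119 and 36173694 counts in wild type against 38383781 and 41924885 in knockout. Levels are CPM, the usual depth-scaled read count of a gene, after TMM scaling, which corrects totals for genes that take a large share of reads. Haemoglobin genes took 8.25% and 4.03% of wild-type counts and 30.7% and 14.9% of knockout counts, and the scaling factor of knockout library 1 was 0.669 against 1.03 to 1.29 in the others. Xist was at 0.045 and 0.039 CPM in wild-type and knockout libraries 1 and at 932 and 288 CPM in libraries 2, and 4 Y-linked genes summed to 109 and 108 CPM in libraries 1 and to 0 in libraries 2, so each genotype held 1 library of male and 1 of female pattern. Differences are therefore also given between libraries of the same number. Trim21 itself had 27.9 and 40.9 CPM in wild type and 13.4 and 20.4 CPM in knockout (adjusted p 0.17), and the deleted stretch of the allele is not described, so reads outside it would not check the label. B and T cell markers were present in every library, with Cd79a at 893 CPM or more and Cd3e at 59.7 CPM or more.

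The basophil protease genes had the largest differences of the 8. In knockout spleens 4 of the 8 genes rose, Prss34, Mcpt8, Cpa3 and Hdc, and 0 fell. Fcer1a and Ms4a2 were higher in both knockout libraries than in both wild-type libraries without passing the test, while Il4 and Cd200r3 overlapped between genotypes. The test was edgeR's quasi-likelihood test over 13532 genes, and a gene passed when its Benjamini-Hochberg adjusted p was under 0.05. Of all genes tested, 6.29% passed in either direction, 5.9% as higher and 0.392% as lower. Without adjustment, 6 of the 8 were higher and 0 lower at p under 0.05, where 15.5% of all genes tested were higher and 12.3% lower. DESeq2 passed 6 as higher and 0 as lower (11.2% and 6.48% of all genes it tested), and limma-voom 4 and 0 (6.58% and 0.495%). With sex pattern as a term in the edgeR fit, which leaves 1 residual degree of freedom, 6 were higher and 0 lower, beside 22.4% and 19.7% of all genes tested. The median log2 fold change of the 8 was 2.20, against -0.056 over all genes tested. It was 1.85 between libraries 1 and 2.95 between libraries 2. Both knockout libraries lay above both wild-type libraries for 6 of the 8, as for 30.3% of all genes tested, and below them for 0 of the 8, as for 30.1% of all genes tested. In bulk RNA, more cells of a type and more RNA per cell cannot be told apart. The labels do not say how many mice a library holds, but the opposite sex patterns show that the 2 libraries of a genotype came from different mice. Their spread therefore includes any difference between sexes. An exact permutation test of 2 against 2 libraries could not go below p = 0.33 (two-sided).

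**Figure D1:**
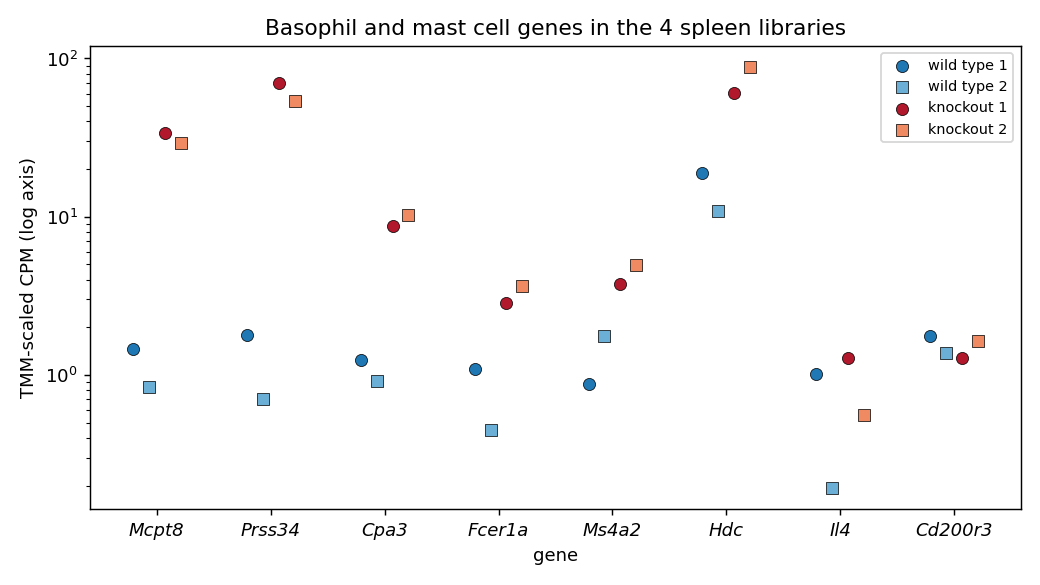
TMM-scaled CPM (log axis) of each gene in each of the 4 libraries, wild type in blue and knockout in red or orange, circles for libraries 1 and squares for libraries 2. For Mcpt8, Prss34, Cpa3, Fcer1a, Ms4a2 and Hdc both knockout points lie above both wild-type points, while for Il4 and Cd200r3 they overlap.

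Prss34 (ENSMUSG00000056399, GRCm38 chromosome 17, 25298394 to 25300165, plus strand) encodes a tryptase-like serine protease known as mast cell protease 11, made mainly by basophils. Wild-type counts were 79 and 33, against 1796 and 2332 in knockout, or 1.78 and 0.706 CPM against 69.9 and 54.0 CPM. Both knockout libraries were thus far above both wild-type libraries, and the 2 wild-type values differed more in proportion than the 2 knockout values. The means were 1.24 ± 0.762 and 62.0 ± 11.3 CPM (SD, n = 2 each), a 49.8-fold ratio. Its log2 fold change of 5.64 ± 0.60 (SE, edgeR adjusted p 0.011) ranked 37 from the top among the 13532 genes. The log2 difference was 5.25 between libraries 1 and 6.16 between libraries 2.

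Mcpt8 (ENSMUSG00000022157, chromosome 14, 56082166 to 56085273, minus strand) encodes a granzyme-like serine protease of basophil granules. Wild-type libraries held 65 and 39 counts, against 868 and 1254 in knockout, which is 1.47 and 0.835 CPM against 33.8 and 29.0 CPM. Both knockout libraries were far above both wild-type libraries. The means were 1.15 ± 0.447 and 31.4 ± 3.37 CPM (SD, n = 2 each), 27.3-fold apart. The log2 fold change was 4.77 ± 0.49 (SE, edgeR adjusted p 0.011), with 4.48 between libraries 1 and 5.04 between libraries 2. A microRNA gene, Mir6949, lies within Mcpt8 in the annotation.

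Cpa3 (ENSMUSG00000001865, chromosome 3, 20215620 to 20242181, minus strand) encodes carboxypeptidase A3, which trims peptides in mast cell and basophil granules. There were 55 and 43 wild-type counts, against 226 and 443 in knockout, or 1.24 and 0.920 CPM against 8.80 and 10.3 CPM. The groups did not overlap, and libraries of a genotype lay close together. Its log2 fold change was 3.14 ± 0.47 (SE, edgeR adjusted p 0.015), an 8.81-fold ratio of the means, with 2.78 between libraries 1 and 3.41 between libraries 2. The rise of Cpa3 was thus smaller in value than those of Mcpt8 and Prss34.

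The stretches before the start sites of these proteases are shown, since they rose together, beside those of the receptor chain Ms4a2 and of Cd200r3, which did not pass. All 8 genes had an entry in the RefSeq promoter table (GRCm38.p6), and the 250 bases before each RefSeq start were searched on both strands. The words AGATAA and TGATAA, bound by GATA factors such as GATA1 and GATA2, are in capitals, except in Mcpt8, where capitals mark TGTGGT, the RUNX word, on either strand. For Mcpt8 only the 174 bases before its annotated GENCODE start are printed.
Prss34, chr17:25298144-25298393, plus strand: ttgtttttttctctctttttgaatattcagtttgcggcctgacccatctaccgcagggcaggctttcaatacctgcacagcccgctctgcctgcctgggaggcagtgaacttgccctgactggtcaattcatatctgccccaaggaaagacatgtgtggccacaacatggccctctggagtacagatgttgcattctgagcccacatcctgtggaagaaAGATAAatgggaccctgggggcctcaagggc
Mcpt8, chr14:56085274-56085447, minus strand: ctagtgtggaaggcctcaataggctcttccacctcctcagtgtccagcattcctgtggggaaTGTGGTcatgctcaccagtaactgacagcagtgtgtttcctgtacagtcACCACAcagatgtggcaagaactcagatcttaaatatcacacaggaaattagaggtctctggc
Cpa3, chr3:20242182-20242431, minus strand: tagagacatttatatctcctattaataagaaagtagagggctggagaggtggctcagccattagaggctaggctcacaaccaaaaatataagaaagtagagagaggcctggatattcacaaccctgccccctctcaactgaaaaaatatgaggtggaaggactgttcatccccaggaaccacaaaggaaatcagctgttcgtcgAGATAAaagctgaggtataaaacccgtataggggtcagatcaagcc
Ms4a2, chr19:11623720-11623969, minus strand: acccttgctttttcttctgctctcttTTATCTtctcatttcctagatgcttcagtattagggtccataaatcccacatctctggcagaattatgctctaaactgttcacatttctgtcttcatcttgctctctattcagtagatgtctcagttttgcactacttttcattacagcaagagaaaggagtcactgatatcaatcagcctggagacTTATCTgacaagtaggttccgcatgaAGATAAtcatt
Cd200r3, chr16:44943428-44943677, plus strand: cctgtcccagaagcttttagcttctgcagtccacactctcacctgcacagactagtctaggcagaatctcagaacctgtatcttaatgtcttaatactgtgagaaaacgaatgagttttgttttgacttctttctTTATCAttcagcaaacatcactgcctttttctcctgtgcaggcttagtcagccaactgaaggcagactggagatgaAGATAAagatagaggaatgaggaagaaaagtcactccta
A GATA word was found in 5 of the 8 windows, where 16.6% of 32851 promoter windows of the same length held one. Prss34 had 1 at -31 and Cpa3 1 at -46 relative to the RefSeq start, counted to the first base of the word. Fcer1a had 1, at -92, Ms4a2 had 3 and Cd200r3 had 2. The windows of Mcpt8, Hdc and Il4 held 0. The RUNX word was present in Mcpt8, Cpa3 and Fcer1a and in 14.0% of all windows. TTGCNNAA, a C/EBP word, was found in Fcer1a, Il4 and Cd200r3 and in 9.56% of all windows, and TTCNNNGAA, a STAT5 word, in none of the 8 and in 7.02% of all. GATA words thus stood before 2 of the 4 genes that rose and 3 of the 4 that did not pass, and a match is a run of letters that no measurement here tests. For Hdc the RefSeq start lies 621 bases from the GENCODE start.

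Hdc (ENSMUSG00000027360, chromosome 2, 126593667 to 126619299, minus strand) encodes histidine decarboxylase, the enzyme that makes histamine, and is transcribed in other myeloid cells as well. Counts were 833 and 511 in wild type against 1549 and 3817 in knockout, or 18.8 and 10.9 CPM against 60.3 and 88.4 CPM. The means were 14.9 ± 5.56 and 74.3 ± 19.8 CPM (SD, n = 2 each), a 5.0-fold ratio without overlap. The log2 fold change of 2.32 ± 0.45 passed (SE, edgeR adjusted p 0.028), while leaving out knockout library 2 gave 2.03 and an adjusted p of 0.070, which did not pass. The difference was 1.68 between libraries 1 and 3.01 between libraries 2, so it was larger in value between the libraries of female pattern, and that contrast was not tested.

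Receptor chains had smaller differences. Fcer1a (ENSMUSG00000005339, chromosome 1, 173221284 to 173227214, minus strand), the alpha chain that binds IgE, held 48 and 21 wild-type counts against 73 and 158 in knockout. These are 1.08 and 0.449 CPM against 2.84 and 3.66 CPM, with no overlap. Its log2 fold change was 2.08 ± 0.63 (SE) with an edgeR adjusted p of 0.092. It passed by DESeq2 (adjusted p 0.021), narrowly with no low-count filter (adjusted p 0.046) and with sex pattern as a term (adjusted p 5.1e-04). In the other fits of all 4 libraries it did not pass, with adjusted p from 0.076 by limma-voom to 0.14 with library totals alone. With 1 library left out, its log2 fold change ran from 1.59 to 2.83.

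Ms4a2 (ENSMUSG00000024680, chromosome 19, 11615523 to 11623719, minus strand) encodes the beta chain, which amplifies the signal of the receptor. Counts were 39 and 82 in wild type against 96 and 215 in knockout, which is 0.880 and 1.75 CPM against 3.74 and 4.98 CPM. The log2 fold change was 1.72 ± 0.56 (SE, edgeR adjusted p 0.11). Ms4a2 passed by DESeq2 (adjusted p 0.040) and with sex pattern as a term in edgeR (adjusted p 8.6e-04). In the other fits of all 4 libraries it did not pass, with adjusted p from 0.072 with no low-count filter to 0.26 with library totals alone. With 1 library left out, its log2 fold change ran from 1.30 to 2.31. Its wild-type libraries stood in the opposite order to those of Fcer1a. There were 0.813 counts of Ms4a2 per count of Fcer1a in wild-type library 1 (95% exact binomial interval 0.519 to 1.27) and 3.90 (2.39 to 6.64) in wild-type library 2. The knockout ratios were 1.32 (0.960 to 1.81) and 1.36 (1.10 to 1.68), so the intervals overlapped between the knockout libraries and did not between the wild-type ones. Intervals cover counting error only.

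Il4 and Cd200r3 did not pass, and their groups overlapped. Il4 (ENSMUSG00000000869, chromosome 11, 53602982 to 53618669, minus strand), also made by helper T and natural killer T cells, held 45 and 9 wild-type counts against 33 and 24 in knockout. These are 1.02 and 0.193 CPM against 1.28 and 0.556 CPM, and in each genotype library 1 was the higher. The log2 fold change was 0.59 ± 0.90 (SE, edgeR adjusted p 0.69) and ran from -0.16 to 2.21 with 1 library left out, so neither a rise nor a fall was resolved. Cd3e, a T cell marker, had 154 and 103 CPM in wild type and 59.7 and 63.9 CPM in knockout, and its part in the Il4 value was not tested.

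Cd200r3 (ENSMUSG00000036172, chromosome 16, 44943678 to 44981380, plus strand) encodes an activating receptor on the surface of basophils and mast cells. Counts were 78 and 64 in wild type against 33 and 71 in knockout, or 1.76 and 1.37 CPM against 1.28 and 1.64 CPM. The knockout libraries stood below and between the wild-type ones. The log2 fold change was -0.09 ± 0.55 (SE, edgeR adjusted p 0.93).

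**Figure D2:**
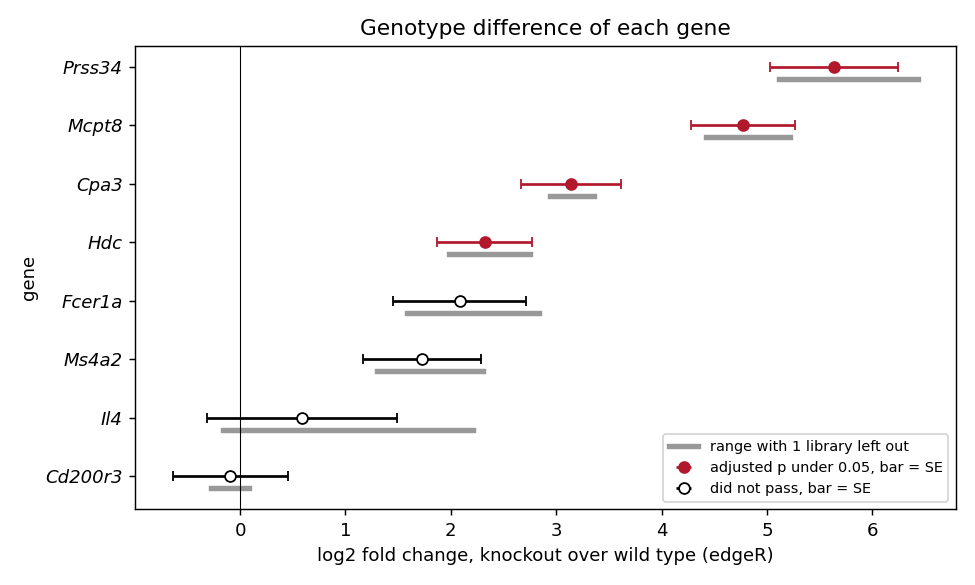
Log2 fold change of knockout over wild type (x axis, edgeR) of each gene, with its SE as the bar, filled red where the adjusted p was under 0.05, and the range over the 4 fits with 1 library left out in grey. Prss34 at 5.64 and Mcpt8 at 4.77 stand highest, and the ranges of Il4 and Cd200r3 cross 0.

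The 8 genes thus differed among themselves, which ratios of counts within a library show without any scaling. Mcpt8 had 0.833 (95% exact binomial interval 0.590 to 1.17) and 0.609 (0.398 to 0.921) counts per count of Cd200r3 in the wild-type libraries. In the knockout libraries it had 26.3 (18.6 to 38.5) and 17.7 (13.9 to 22.8). Counts of Mcpt8 per count of Fcer1a were 1.35 (0.918 to 2.01) and 1.86 (1.07 to 3.32) in wild type against 11.9 (9.36 to 15.3) and 7.94 (6.72 to 9.43) in knockout. Fcer1a and Cd200r3 moved apart as well, with 0.615 (0.420 to 0.893) and 0.328 (0.190 to 0.544) counts of Fcer1a per count of Cd200r3 in wild type against 2.21 (1.45 to 3.45) and 2.23 (1.67 to 2.99) in knockout. Between the proteases the shift was smaller: Prss34 had 1.22 (0.864 to 1.71) and 0.846 (0.516 to 1.38) counts per count of Mcpt8 in wild type against 2.07 (1.91 to 2.25) and 1.86 (1.74 to 1.99) in knockout. Hdc had 15.1 (11.5 to 20.3) and 11.9 (8.70 to 16.6) counts per count of Cpa3 in wild type against 6.85 (5.96 to 7.92) and 8.62 (7.81 to 9.53) in knockout, lower values whose intervals overlapped between libraries 2.

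Per kilobase of exon, the order of levels differed between genotypes. In wild type Hdc stood highest, at 2.33 ± 0.871 CPM per kb (SD, n = 2), and Cd200r3 lowest, at 0.262 ± 0.046. The 6 genes between them, from Mcpt8 at 1.15 to Ms4a2 at 0.468 CPM per kb, each overlapped their neighbour in that order. In knockout the order was Prss34 (50.8 ± 9.23 CPM per kb), Mcpt8 (31.5 ± 3.37), Hdc (11.6 ± 3.11), Cpa3 (6.28 ± 0.680), Fcer1a (3.26), Ms4a2 (1.55), Il4 (0.750) and Cd200r3 (0.245), and no neighbours overlapped. Summed over the 8 genes, levels were 9.21 and 5.19 CPM per kb in wild type against 112 and 100.1 in knockout. Mcpt8 and Prss34 took 15.96% and 15.9% of that sum in wild-type library 1, 16.1% and 11.1% in wild-type library 2, 30.3% and 51.2% in knockout library 1, and 29.1% and 44.2% in knockout library 2. Hdc took 31.9% and 33.0% in wild type against 8.44% and 13.8% in knockout. Exon lengths are those of all annotated isoforms joined, so genes with long rare isoforms read too low on this scale.

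**Figure D3:**
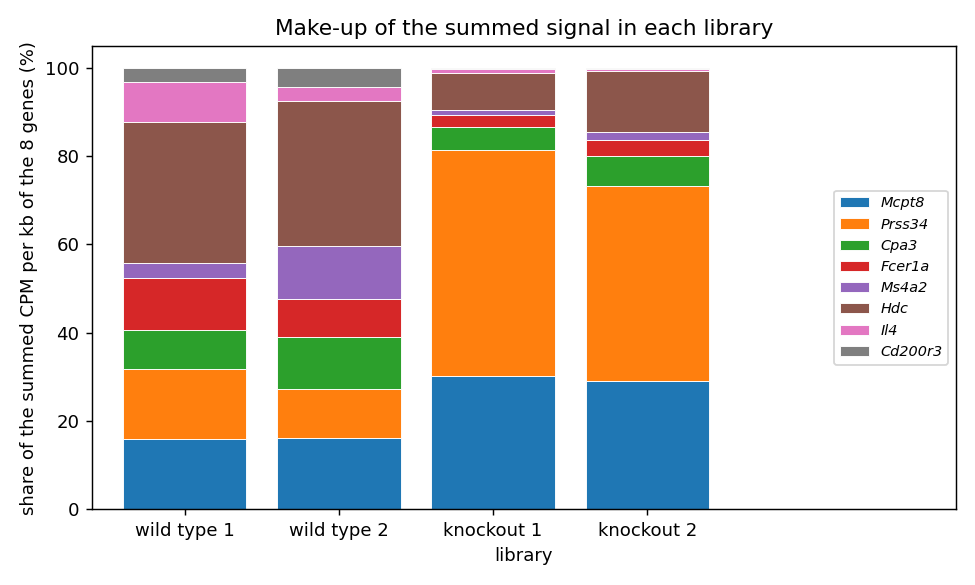
Share (%) of the summed CPM per kb of the 8 genes that each gene took, for each library. Prss34 and Mcpt8 fill most of the knockout bars, and Hdc takes the largest share of both wild-type bars.

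Each gene's pattern over the 4 libraries was set against 10641 named protein-coding genes, by the Euclidean distance between mean-centred log2 CPM values. Nearest to Mcpt8 were Mapk13 (distance 0.456), Prss57 (0.460), a neutrophil serine protease, and Lbp (0.476), the lipopolysaccharide-binding protein. To Prss34 the nearest were Wfdc21 (0.443), Chil3 (0.530) and S100a8 (0.611), of which Chil3 and S100a8 are abundant in neutrophils and their precursors. Mcpt8 and Prss34 were 1.02 apart from each other. Fcer1a and Hdc were the closest pair of the 8 (0.386), and both had Ckap4 among their 3 nearest genes (0.179 and 0.218). Cpa3 was nearest to Mtfr2 (0.178) and Ms4a2 to Wdhd1 (0.14), while Il4 was nearest to Tmem160 (0.148) and Cd200r3 to Tmem50b (0.053). Over 4 libraries many genes share such patterns, so these are descriptions with no test.

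Of 17 genes that act in signalling from the IgE receptor, 0 passed by edgeR, with 5 lower and 1 higher at an unadjusted p under 0.05, and their median log2 fold change was -0.79. Fcer1g, the gamma chain shared with other Fc receptors, was the 1 that was higher, at 121 and 39.6 CPM in wild type against 296 and 192 CPM in knockout, with a log2 fold change of 1.60 ± 0.58 (adjusted p 0.13). Plcg1 (-1.48), a phospholipase, and the kinases Fyn (-1.14) and Syk (-1.30), which lymphocytes also use, had adjusted p of 0.070 to 0.13. DESeq2 passed 4 as lower and 1 as higher, limma-voom 1 and 0, and scaling by library totals alone 4 and 0. With sex pattern as a term, 10 passed as lower and 1 as higher. Over all genes tested, 12.3% were lower and 15.5% higher without adjustment, and 6.48% and 11.2% by DESeq2. By edgeR these shares were 0.392% and 5.9%, and by limma-voom 0.495% and 6.58%. With sex pattern these shares were 19.7% and 22.4%. Counts for the lists with 1 library left out are not given, since a lone library has no spread of its own. All tested B, T and NK cell markers (7, 7 and 4 genes) had log2 fold changes below 0, with summed levels of 5516 and 4756, 1074 and 671, and 98.3 and 78.4 CPM in wild type. In knockout these sums were 3020.1 and 2398, 449.8 and 397, and 55.0 and 49.3 CPM. By edgeR 0 of these markers passed in each list. Without adjustment 3 B, 5 T and 2 NK cell markers were lower at p under 0.05, DESeq2 passed 3, 1 and 0, and limma-voom 0 in each. Library totals alone gave 4 lower B cell and 3 lower T cell markers, beside 1376 lower of all 13532 genes. With sex pattern as a term, 5 B, 6 T and 3 NK cell markers were lower. Their part in the signalling genes was not tested.

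Several protease and receptor genes of mast cells had few or no counts, while Cma1 had 52 to 130. Of 18 genes of mast cell granules and receptors, 4 had 0 counts in every library: the tryptases Tpsab1 and Tpsg1 and the receptors Mrgprb1 and Mrgprb2. A count of 0 allows up to 3 counts, which is 0.064 to 0.117 CPM in these libraries. Tpsb2, another tryptase, had 4 to 11 counts and Mcpt4, a chymase, 9 to 15, and Mcpt2 held 5 and 7 wild-type counts against 30 and 9 in knockout. Of the 9 tested, 0 passed by edgeR, DESeq2 or limma-voom (0 also at an unadjusted p under 0.05), and their median log2 fold change was 0.11. Sex pattern as a term gave 1 lower, where 19.7% of all genes tested were lower. Kit, the receptor for stem cell factor, had 14.5 and 18.3 CPM in wild type against 11.8 and 26.7 CPM in knockout. Cma1, the mast cell chymase gene, had 2.93 and 1.71 CPM against 2.02 and 2.20 CPM, and Hpgds, which makes prostaglandin D2, had 4.92 and 17.7 CPM against 4.79 and 6.11 CPM. Hpgds had the smallest p of this list, with a log2 fold change of -1.05 and an adjusted p of 0.30. Next were Mcpt4 (0.73), Gzmb (-0.44) and Slc18a2 (0.30), with adjusted p of 0.55 to 0.72.

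Among 21 tested genes of basophil growth, identity, cytokines and lipid mediators, 3 rose and 0 fell by edgeR, with a median log2 fold change of 0.03. Without adjustment 4 were higher and 2 lower at p under 0.05, DESeq2 gave 4 and 1, limma-voom 3 and 0, library totals alone 2 and 2, and the fit with sex pattern 8 and 4. Over all genes tested, 5.9% were higher and 0.392% lower by edgeR, and 6.58% and 0.495% by limma-voom. Without adjustment 15.5% were higher and 12.3% lower, and by DESeq2 11.2% and 6.48%. With sex pattern these shares were 22.4% and 19.7%. Library totals alone called 782 higher and 1376 lower of 13532 genes. Il1rl1, the interleukin-33 receptor, had 2.12 and 4.90 CPM in wild type against 18.2 and 19.7 CPM in knockout, a log2 fold change of 2.43 ± 0.51 (adjusted p 0.035). Alox5, the lipoxygenase that starts leukotriene synthesis, had 11.6 and 6.91 CPM against 29.7 and 46.8 CPM (2.04 ± 0.46, adjusted p 0.046). Alox5 missed the threshold without knockout library 2 (1.69, adjusted p 0.17) and with library totals alone (1.63, adjusted p 0.053). Gata1, which drives red cell, megakaryocyte, mast cell and basophil genes, had 11.3 and 15.6 CPM against 338 and 197 CPM (4.31 ± 0.49, adjusted p 0.011). Klf1, an erythroid regulator, rose in the same libraries, from 16.6 and 31.6 CPM to 755 and 393 CPM, and the part of red cell precursors in the Gata1 value was not tested. The other regulators did not pass: Gata2 had 4.90 and 3.19 CPM against 6.70 and 9.77 CPM (adjusted p 0.20), and Cebpa 12.0 and 3.32 CPM against 18.3 and 16.02 CPM (adjusted p 0.25). Il3ra, the alpha chain of the receptor for interleukin-3, the main basophil growth factor, had 12.0 and 3.68 CPM against 13.4 and 12.0 CPM (0.70, adjusted p 0.45). Alox5ap, the partner of Alox5, had a log2 fold change of 1.99 and an adjusted p of 0.091. Il18r1, the interleukin-18 receptor, had -1.35 and Itga2, an integrin, -2.55 (adjusted p 0.14 each). These were the 2 genes that were lower without adjustment, opposite in direction to Mcpt8 and Prss34. Itga2 had 0.700 and 4.69 CPM in wild type against 0.350 and 0.556 CPM in knockout, so wild-type library 2 stood far above the rest.

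Several other type 2 cytokines were at or near 0. Il3, Il9 and Il25 had 0 counts in every library, Il5 had 1 count in all, and Il13 held 3 and 2 wild-type counts against 0 in knockout, which is at or under the 3 counts that a 0 allows. Of the 8 tested genes of this group 0 passed by edgeR (3 were lower without adjustment at p under 0.05, while DESeq2 passed 1 and limma-voom 0). The fit with sex pattern gave 3 lower. Over all genes tested, 12.3% were lower without adjustment, 6.48% by DESeq2 and 19.7% with sex pattern. Il4ra, the receptor chain for interleukin-4, had 275 and 190.0 CPM in wild type against 84.8 and 91.1 CPM in knockout (-1.40, adjusted p 0.080). Gata3 (-1.14), Stat6 (-0.94) and Tslp (1.53) had adjusted p of 0.13 to 0.22.

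Histamine handling outside Hdc showed no call by edgeR over 5 tested genes (1 higher at an unadjusted p under 0.05). Hnmt, which inactivates histamine by methylation, was that gene, with 0.610 and 0.728 CPM against 2.41 and 3.19 CPM (2.07 ± 0.56, adjusted p 0.072), and DESeq2 passed 1 gene of the list as higher, limma-voom 0 and the fit with sex pattern 1. Over all genes tested, 15.5% were higher without adjustment, 11.2% by DESeq2 and 22.4% with sex pattern. The receptors Hrh1 (-1.31) and Hrh2 (-0.69) did not pass, Hrh4 held 15 and 6 wild-type counts against 1 in each knockout library, and Hrh3 had 0 throughout. Slc22a3, which transports histamine, had a log2 fold change of 1.24 (adjusted p 0.26). Relatives of Cd200r3 did not pass: Cd200r1 and Cd200r4 had log2 fold changes of 0.15 and -0.16 (adjusted p 0.86 each). Tyrobp, an adaptor with which such receptors signal, had 202 and 57.3 CPM against 311 and 188 CPM (0.95, adjusted p 0.35), and Cd200, the ligand of Cd200r1, had -0.98 (adjusted p 0.15). Of the 5 tested genes of this family 0 passed by edgeR, DESeq2 or limma-voom (1 lower at an unadjusted p under 0.05, as were 12.3% of all genes). The fit with sex pattern gave 1 in each direction, where 22.4% of all genes tested were higher and 19.7% lower.

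Eosinophil, neutrophil precursor, erythroid and cell cycle genes also rose in knockout, in part or in full. Calls here are those of edgeR, which passed 5.9% of all genes tested as higher and 0.392% as lower. Of 9 eosinophil genes 5 rose, among them Epx, Prg2 and Prg3 of the granules, while the surface receptors Siglecf (0.84), Ccr3 (0.20) and Il5ra (-1.72) did not pass. Summed over the list, eosinophil genes had 118 and 77.4 CPM in wild type against 474 and 422 CPM in knockout. All 5 neutrophil precursor genes rose, from a summed level of 27.2 and 9.25 CPM to 1644 and 1639.9 CPM, with Ctsg, Elane, Mpo, Ms4a3 and Prtn3 between 6.24 and 7.02 on the log2 scale. Erythroid genes rose in 5 of 7 cases (summed 1354 and 1432 CPM against 12838 and 7031 CPM), and cell cycle genes in 5 of 6 (summed 179.9 and 626 CPM against 2767 and 2271 CPM). The log2 fold changes of Mcpt8 and Prss34 thus lay below those of the 5 neutrophil precursor genes and above those of all 9 eosinophil genes. The part of these cells in the values of Hdc, Cpa3 and the other members was not tested.

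**Figure D4:**
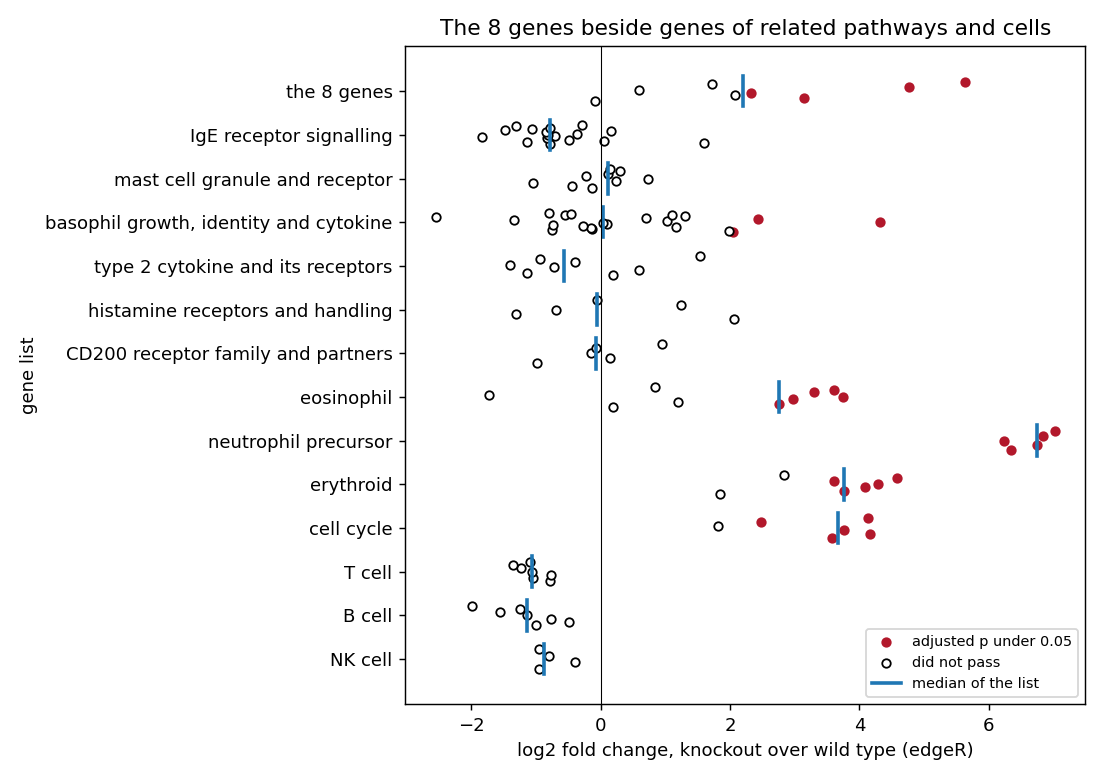
Log2 fold change of knockout over wild type (x axis, edgeR) for the 8 genes and for the tested genes of each related list, red where the adjusted p was under 0.05, with the median of each list as a blue line. The 8 genes spread from -0.09 to 5.64, while mast cell genes lie around 0 and T, B and NK cell markers lie below it.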

How the data were processed

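Spleens were passed through a filter, and RNA was depleted of ribosomal RNA and made into stranded single-end libraries, per the labels' protocols. The authors deposited 1 table of expected counts (each an estimated count of reads per Ensembl gene), with 25601 rows and 4 libraries. STAR 2.5.0, SAMtools 1.18, RSEM 1.2.25 and GRCm38 are listed, with no role or order, in the submitters' processing notes. Neither annotation release nor strand setting is given in the sources used here. Values were already whole (0 values off a whole number), so rounding changed none. The 92 spike-in rows held 0 counts and were left out. Of 25509 gene rows, 25251 matched GENCODE M21 (GRCm38). No other gene overlaps the 8 members there, apart from microRNA genes within Mcpt8 and Cpa3.

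Groups came from the sample titles. Counts were compared with edgeR 4.0.16 (R 4.3.3): TMM, filterByExpr, robust dispersion, quasi-likelihood F test, Benjamini-Hochberg adjustment over 13532 genes, and 2 residual degrees of freedom. The SE is the size of the log2 fold change divided by the square root of F. Differences between libraries of one number use a prior count of 2. Alternatives used DESeq2 1.42.0, limma 3.58.1 and other scalings and filters. The script was tested on simulated data. Replicates differed beyond sampling noise (chi-square per degree of freedom 476 and 345). Members and lists were chosen with earlier results of these data known. Named genes were the 8 members, the list members that passed and up to 4 with the smallest p per list, those at 0 throughout, and the 3 nearest patterns of each member among named protein-coding genes. Kit, Cma1, Tpsb2, Mcpt2, Hrh4, Cebpa, Il3ra, Cd79a, Il5, Il13 and the neighbours of Mcpt8 and Prss34 were named after their values were seen. Azu1 had no row in the annotation match and has no value. The values of 1 other list gene are not reported here.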

Additional observations from a re-analysis of the deposited data

Results flagged for a closer look

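Cd200r3 differed in direction between the pairs of libraries. Its log2 difference of knockout minus wild type was -0.44 between libraries 1, of male pattern, and 0.255 between libraries 2, of female pattern. With 1 library of each kind the difference between these values was not tested. The counts behind them were 33 against 78 and 71 against 64. Groups of 2 libraries are too small for a check of single libraries that stand apart.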

How the results depend on the processing

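The rises of Prss34, Mcpt8 and Cpa3 passed under every alternative tried, with 1 library left out giving log2 fold changes of 5.12 to 6.43, 4.42 to 5.21 and 2.94 to 3.36. The number of the 8 genes that rose was 4 to 6 with other scalings, tests and filters and 3 to 5 with 1 library left out, and 0 fell in any. With the replicate number as a block, 6 of the 8 rose (Fcer1a and Ms4a2 in addition, adjusted p 5.1e-04 and 8.6e-04), and over all genes 3036 rose and 2669 fell. Deviations of same-numbered libraries correlated at 0.51 over genes, and the number coincides with sex pattern in both genotypes, so the block is also a term for sex. The labels tie the numbers to no shared animal or batch. A threshold of 0.1, chosen after seeing the data, gave 5 members. With 1 library left out, Il4 ran from -0.16 to 2.21 and Cd200r3 from -0.28 to 0.087. Il4 turned to -0.16 without wild-type library 2 and -0.12 without knockout library 1, and Cd200r3 to 0.087 and 0.070 without wild-type library 1 and knockout library 1. Il4 was not tested under the filter of 1 CPM in 2 libraries.

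Over all genes, 798 rose and 53 fell. DESeq2 gave 1564 and 908, no low-count filter 1278 and 490, and library totals alone 782 and 1376, where the median over all genes went from -0.056 to -0.56 on the log2 scale. With 1 library left out, rises ran from 601 to 2300 and falls from 30 to 2047, and a lone library was taken to have the spread of the other genotype. The cause was not tested. Among members the SE was largest, 0.90, for Il4, which had 9 to 45 counts a library.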

Other observations

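Mcpt8 lies in a cluster of chymase and granzyme genes on chromosome 14, and Prss34 beside the tryptase genes on chromosome 17. Protein-coding genes within 250 kb on either side, a window chosen after the data were seen, were counted. By edgeR, 6.29% of all genes tested passed in either direction. Of 19 neighbours of Mcpt8, 5 had 0 counts in every library, 6 were tested and 1 passed by edgeR. That gene was Ctsg, the neutrophil protease cathepsin G, with 79 and 24 wild-type counts against 2477 and 3897 in knockout (log2 fold change 6.34, edgeR adjusted p 0.011). The other cluster members that could be tested, Cma1 (-0.14), Mcpt4 (0.73) and Gzmb (-0.44), had adjusted p of 0.55 to 0.89. Gzmc held 18 and 5 wild-type counts against 2 and 4 in knockout.

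Of 20 neighbours of Prss34, 11 were tested, and the smallest adjusted p by edgeR was 0.060, which did not pass. This was Ift140, at the far end of that window, with 2910 and 4395 wild-type counts against 8703 and 9090 in knockout (log2 fold change 1.78). The nearest tryptase-like genes, Prss28 and Prss29, had 1 to 7 counts in each library.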
